A study of Mus musculus with 36 samples.

Results

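Forelimbs of mouse embryos that lack the limb enhancer mm1179 were compared with wild-type forelimbs by the strength and the extent of their H3K27ac peaks. The comparison used 8 of the 18 peak lists of the series, 4 mm1179 lists and 4 wild-type (WT) lists, chosen by genotype and run tag and not by any measured value. All 8 came from forelimbs of FVB embryos at embryonic day 11.5, untreated, with chromatin precipitated by an antibody against acetylated lysine 27 of histone H3. The WT embryos carried no enhancer knockout. The mm1179 embryos were enhancer-null for mm1179, an element known as a limb enhancer of Gli3. Tissue of several embryos was pooled for a library, but no source used here gives the number of embryos in a pool or the coordinates of the deletion. Nothing in the labels says that libraries came from separate litters, so the spread between libraries that p-values rest on may be technical. The p-values of limma rest also on a prior variance fitted over all regions. The lists carried 2 run tags, called run 1 and run 2 and used as technical batches. Each run held 2 WT and 2 mm1179 libraries, replicates 1 and 2 in run 1 and replicates 3 and 4 in run 2, and the tests reported here kept libraries within their run unless another block is named.

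Gli3 encodes a zinc finger transcription factor whose processed form is the main repressor of Hedgehog target genes in the limb bud. Sonic hedgehog made at the posterior margin of the bud stops the processing of Gli3 into its repressor, and the balance of repressor and activator sets the number and identity of digits. Ptch1, the Hedgehog receptor, Gli1 and Hhip are transcribed in response to the signal, and Hand2, Grem1 and the 5′ HoxD genes act in the same posterior programme. H3K27ac marks active enhancers and promoters, and deleted DNA gives no reads, so a gap in peaks over a deleted stretch and a loss of acetylation cannot be told apart there.

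The promoters of Gli3 and of the Hedgehog target Ptch1 are shown because the strongest peaks of both windows are described below. They are RefSeq promoters of GRCm38.p6, another build than the mm9 of the peak lists, and were not placed on the peaks. Each runs from 250 bases before to 50 bases after the transcription start, and capitals mark CpG dinucleotides.
Gli3, plus strand, chr13:15463473-15463772: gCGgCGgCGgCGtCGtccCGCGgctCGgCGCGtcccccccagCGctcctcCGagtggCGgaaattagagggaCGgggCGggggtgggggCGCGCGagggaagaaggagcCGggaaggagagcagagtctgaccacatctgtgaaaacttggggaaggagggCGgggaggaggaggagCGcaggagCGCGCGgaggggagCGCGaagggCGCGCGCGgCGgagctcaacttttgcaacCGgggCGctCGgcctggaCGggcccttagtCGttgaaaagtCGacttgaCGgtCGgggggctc
Ptch1, minus strand, chr13:63565686-63565985: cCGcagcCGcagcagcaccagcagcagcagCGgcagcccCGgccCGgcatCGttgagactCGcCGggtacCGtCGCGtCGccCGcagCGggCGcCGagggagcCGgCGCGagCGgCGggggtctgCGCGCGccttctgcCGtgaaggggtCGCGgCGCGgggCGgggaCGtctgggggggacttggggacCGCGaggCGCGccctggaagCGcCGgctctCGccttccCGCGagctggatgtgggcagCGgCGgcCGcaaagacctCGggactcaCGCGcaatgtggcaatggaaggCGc
The Gli3 promoter held 39 CpG and the Ptch1 promoter 47, against a median of 7 over 32851 mouse promoters, and 4.45% and 1.44% of promoters held at least as many. The Gli binding motif GACCACCCA, searched on both strands, had 0 matches in either sequence, and 83 of the 32851 promoters (0.253%) held it.

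The strength of a region in a library was the percentile of its highest-scoring peak. Percentiles were taken over the 30719 highest-scoring peaks of each list, the length of the shortest list, so that 100 is the top of a list and 0 means no peak or a peak below that rank. Extent was the share of a region's bases covered by peaks. Both were measured in 36309 regions with a peak in at least 4 of the 8 lists, whatever the genotype. The lists as wholes overlapped between genotypes. The median score was 124 ± 6.13 in WT and 135 ± 16.9 in mm1179 (SD, n = 4 each), and an exact permutation test within runs, two-sided, gave p = 0.278. The difference, mm1179 minus WT, was -4.69 in run 1 and 27.1 in run 2, where both mm1179 lists (139 and 157) lay above both WT lists (115 and 127). Mean peak width differed by -66.8 bp in run 1 and 371 bp in run 2, where mm1179 lists (2568 and 2548 bp) again lay above WT (2095 and 2278 bp). Covered length and mean peak width gave exact permutation p of 0.778 and 0.278. Within runs, the lowest p this test can reach is 0.0556, so no single value tested in this way could pass 0.05. Scores piled up at 3100, where 289 to 1204 peaks of a list were tied, or 0.941% to 2.66% of its peaks. Regions at this ceiling cannot be ranked against each other or between genotypes, so their covered share is given as well.

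By percentile, the interval with the lowest limma p of the 36309 regions lay upstream of Gli3, at chr13:15431504-15439764 (mm9), and was 8261 bp wide. Its centre lay 122 kb before that of the strongest region of the Gli3 window (a distance of -121.7 kb). By covered share its limma p ranked only 109. This interval is called the mm1179 interval here, because the mm1179 lists lacked peaks over its middle. Its percentile in WT was 83.6, 87.8, 84.7 and 82.6 in replicates 1 to 4. In mm1179 it was 7.20, 0, 23.1 and 32.8. The 4 WT lists were close together and above all 4 mm1179 lists, which were spread and without overlap with WT. The difference was -68.91 percentile points (SE 6.94), with an adjusted p of 0.657 over all regions (limma). It was -82.08 in run 1 and -55.74 in run 2. Across all regions, the central 95% of differences ran from -18.3 to 19.9 points, and 2 regions, this one included, had a difference of this size or larger.

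Peaks covered 91.2%, 97.1%, 91.5% and 100% of the interval in the WT lists and 31.4%, 0%, 38.9% and 53.9% in the mm1179 lists. The covered share also did not overlap between genotypes, with a difference of -63.9 percentage points (SE 21.5, limma adjusted p = 1). The remaining mm1179 peaks lay at both edges. Replicate 1 had 1 peak at each edge with scores of 52.5 and 62.4, replicate 3 had scores of 63.0 and 97.3, and replicate 4 had 130 and 182, while replicate 2 had no peak. The highest WT score in the interval was 598 to 883. Edge peaks thus stayed in 3 of 4 mm1179 lists, each with a score below the highest of every WT list. Those highest WT peaks also covered the middle, so they are not edge peaks. Separate peaks at the right edge scored 50.1 in WT replicate 1 and 136 in WT replicate 3. The right-edge peaks of mm1179 replicates 1, 3 and 4 scored 62.4, 97.3 and 182.

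**Figure D1:**
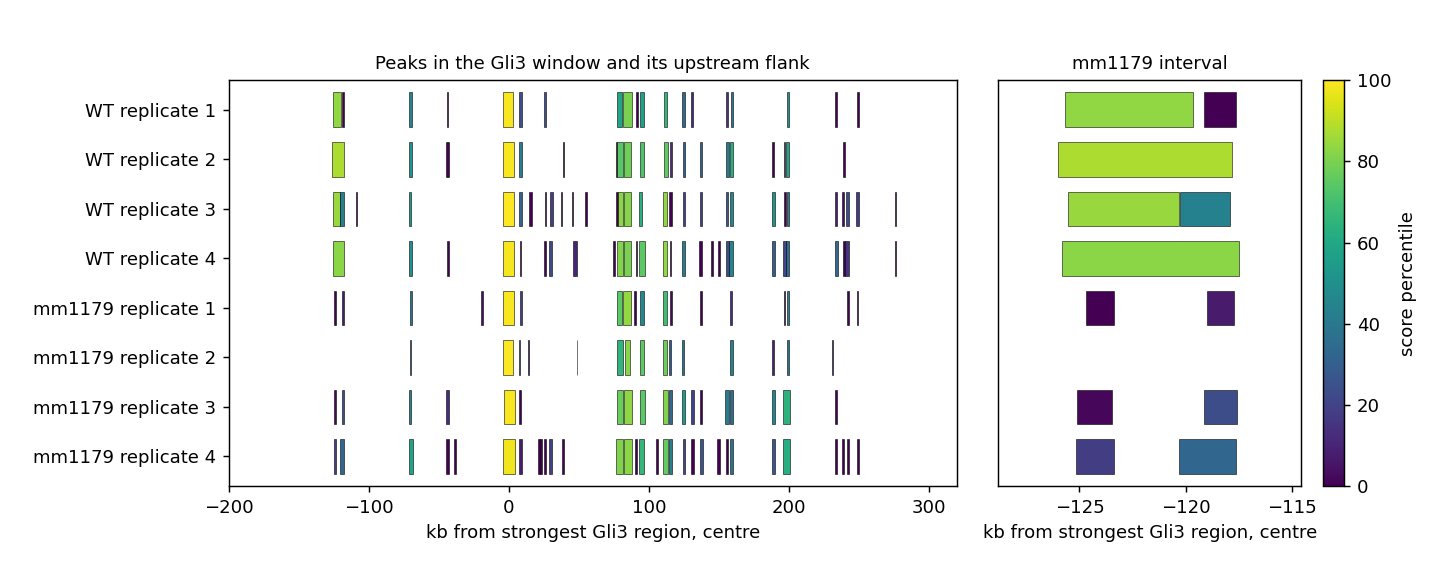
Peaks of the 4 wild-type and 4 mm1179 lists in the Gli3 window and its upstream flank (left) and over the mm1179 interval (right), with distance in kb from the centre of the strongest Gli3 region on the horizontal axis. Each bar is a peak, coloured by score percentile from 0 to 100, and the interval is filled in the WT lists while the mm1179 lists have short low-ranking peaks at its edges or none.

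When the interval was divided at the edges of the mm1179 peaks, the middle part, chr13:15433947-15437003 (3057 bp), was covered in WT by 100%, 100%, 99.6% and 100% and in mm1179 by 0% in each list. The division was made from the mm1179 peaks, so this contrast is a description without a test. The 10 lists of the other 5 knockout lines of the series covered the same part by 98.7% to 100%. In the left part, chr13:15431504-15433946 (2443 bp), the covered share was 95.4% ± 5.54 in WT (SD, n = 4) and 48.3% ± 33.1 in mm1179 (SD, n = 4). In the right part, chr13:15437004-15439764 (2761 bp), it was 89.0% ± 8.75 in WT and 50.1% ± 40.02 in mm1179. The mm1179 lists differed among themselves in both outer parts, and replicate 4, with 97.3% of the right part covered, lay within the WT range of 79.7% to 100%. Both hs72 lists, from the same run as replicates 3 and 4, covered 96.9% and 97.1% of the whole interval, with highest scores of 463 and 1041.

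**Figure D2:**
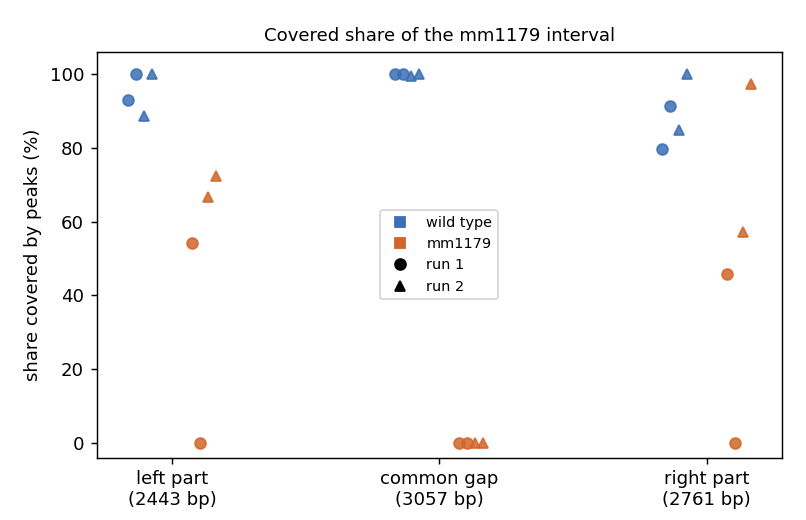
Share of each part of the mm1179 interval that was covered by peaks, in percent, in the 4 wild-type and 4 mm1179 libraries (points, 1 per library, circles for run 1 and triangles for run 2). The middle part was covered by 99.6% to 100% in WT and by 0% in mm1179, and mm1179 libraries spread from 0% to 97.3% in the outer parts.

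No region passed an adjusted p of 0.05 in either measure and in either direction (0 of 36309, or 0%, limma with run as a block). By covered share a call was hard to reach with this fit. The region with the lowest p there, chr17:27301993-27303100, differed by -96.7 points with an SE of 24.2 and was not called. Its covered share had an SD of 3.04 in WT and 0 in mm1179. That SE thus came mostly from the prior variance and not from the spread of its own libraries. The SE of the mm1179 interval was 21.5 with the trend in the prior variance and 10.2 without it. A lack of calls by covered share therefore does not show that the genotypes were alike. For the percentile, 2387 regions (6.57%) had an unadjusted p under 0.05, of which 1341 were higher in mm1179 (3.69%) and 1046 lower (2.88%). For the covered share, 1097 regions (3.02%) had one, 738 higher (2.03%) and 359 lower (0.989%). The groups did not overlap in percentile in 434 regions higher in mm1179 (1.2%) and 387 lower (1.07%), and in covered share in 355 higher (0.978%) and 132 lower (0.364%). The median difference over all regions was 0.0761 percentile points and 1.87 percentage points of covered share. The mm1179 interval thus stood at the edge of a distribution in which no region was called.

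The other region with a difference of that size was chr2:52911396-52914225 (2830 bp), with a percentile of 36.2, 69.4, 90.8 and 86.2 in WT and 0 in each mm1179 list. Its difference was -70.65 (SE 11.2, limma adjusted p = 0.753), and WT run 1 libraries were lower than those of run 2. Only 2 of the 10 lists of the other lines had a peak there and neither hs72 list did, while 10 of 10 had one in the mm1179 interval. Next among the regions lower in mm1179 without overlap came chr2:35368873-35370949 (-38.65), chr10:75017977-75019880 (-37.62) and chr5:135370379-135372336 (-36.60). Among regions higher in mm1179 without overlap, the largest differences were 42.37 at chr11:85828088-85831820, 42.09 at chr16:39122354-39126354 and 42.07 at chr6:8680211-8683507. Then came 41.06 at chrX:50621192-50624188 and 40.85 at chr16:34957684-34960562. At the chr11 region, WT percentiles were 15.03, 29.0, 0 and 5.98 and mm1179 percentiles 66.0, 45.0, 51.6 and 56.9. Adjusted p was 0.753 for all 8 of these regions with limma. Lists of the other lines had peaks there too. It was 10 of 10 at the chr11, chr6 and chr16:39122354-39126354 regions and 6 of 10 at each of the remaining ones, upward and downward. No gene was assigned to these 8 regions, since no annotation of mm9 was at hand.

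The largest differences in covered share were in narrow regions, 1080 to 1670 bp wide. The 5 largest upward ran from 90.7 to 93.8 percentage points, led by chr1:36747328-36748832, where WT lists had no peak and mm1179 peaks covered 82.9%, 94.3%, 99.5% and 98.4%. Highest scores in these 5 regions were 42.1 to 132 in mm1179. The 5 largest downward ran from -96.7 to -93.4 points, led by chr17:27301993-27303100, with 92.7%, 97.6%, 100% and 96.5% covered in WT and 0% in mm1179. Their WT scores were 42.4 to 116, against medians of 115 to 129 in the WT lists. In percentile the 10 regions differed by -20.34 to 11.84 points, less than the interval upstream of Gli3. Among the 10 lists of the other lines, 6 to 10 had a peak at each upward region and 4 to 9 at each downward region. At chr1:36747328-36748832 it was 6 of 10, and the hs72 lists, both of run 2, covered 90.8% and 79.5%.

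**Figure D3:**
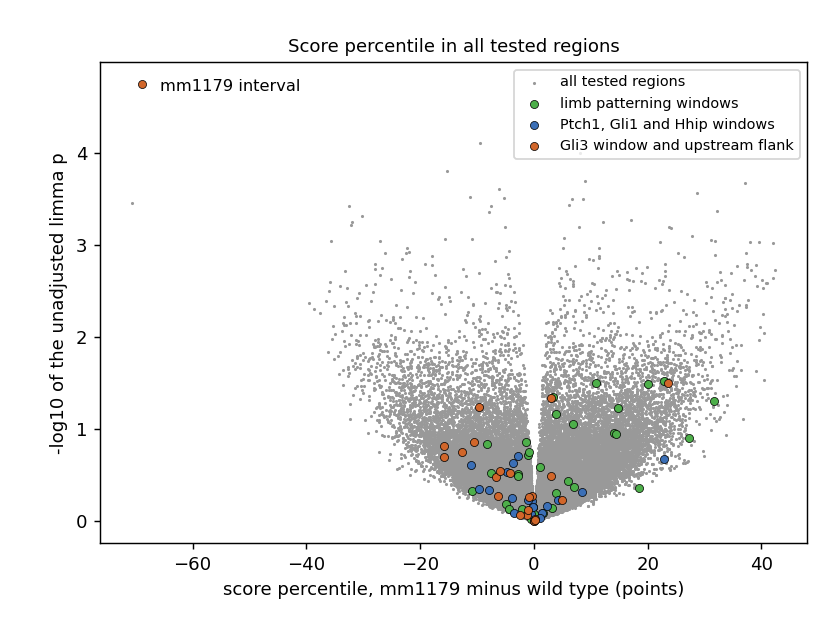
Difference in score percentile, mm1179 minus wild type, against the negative log10 of the unadjusted limma p for all 36309 regions (grey), with the regions of the Gli3 windows, the Ptch1, Gli1 and Hhip windows and the limb patterning windows in colour. The mm1179 interval is at the upper left with a difference of -68.91, and the other coloured regions lie within the grey cloud.

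The Gli3 window, which spans the gene with about 50 kb on each side, held 20 tested regions. Its mean percentile was 27.1, 33.8, 35 and 32.0 in WT and 22.4, 28.9, 35 and 31.3 in mm1179. The genotypes overlapped, with means of 32.0 ± 3.47 and 29.4 ± 5.30 (SD, n = 4 each), a difference of -2.58 and p = 0.389 in the exact permutation test within runs. The difference was -0.246 without mm1179 replicate 1, -1.57 without WT replicate 3, -4.21 without WT replicate 1 and -4.45 without mm1179 replicate 3. It was -4.77 with ranks over each list's own length and 0.152 at a minimum score of 100. Peaks covered 36.4, 43.7, 53.0 and 62.0 kb of the window in WT and 35.4, 30.5, 50.03 and 67.8 kb in mm1179 (exact permutation p = 0.611). In both genotypes the run 2 libraries covered more than those of run 1. The difference was -7.09 kb in run 1 and 1.42 kb in run 2, and the pooled difference of -2.83 kb turned positive without WT replicate 4 (1.57 kb), mm1179 replicate 1 (0.681 kb) or mm1179 replicate 2 (2.30 kb).

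The strongest region of the window, chr13:15553139-15561521 (8383 bp), was at a percentile of 97.8 to 99.9 in all 8 lists. Its score was at the ceiling of 3100 in all lists but WT replicate 3, where it was 3127, so a change in strength could not have been resolved. Its covered share was 84.2%, 89.5%, 93.8% and 93.8% in WT and 91.8%, 82.0%, 94.8% and 99.8% in mm1179, with a difference of 1.79 points (SE 4.13, limma adjusted p = 1). The genotypes overlapped there as well.

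A group of 4 strong regions lay 79.0 to 112 kb beyond the strongest one. Mean percentiles were 74.0 in WT and 74.3 in mm1179 at chr13:15633632-15639037, 66.7 and 65.4 at chr13:15650616-15654357, and 76.9 and 75.9 at chr13:15667608-15670767. At chr13:15639248-15645055 they were 79.9, 77.9, 82.0 and 79.9 in WT and 83.8, 82.3, 83.0 and 82.5 in mm1179. All mm1179 values were above all WT values at this last region, by 2.97 points on average (SE 1.24, limma adjusted p = 0.753). Its covered share differed by -1.03 points (limma adjusted p = 1).

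Of the 20 regions of the Gli3 window, 2 were higher and 0 lower in mm1179 at an unadjusted p under 0.05, where 3.69% and 2.88% of all regions were, and 0 had one for the covered share. The second of the 2 was chr13:15671808-15674015, with percentiles of 0, 12.6, 0 and 0 in WT and 2.14, 28.7, 33.1 and 43.0 in mm1179. The difference was 23.61 (SE 8.90, limma adjusted p = 0.753), and mm1179 replicate 1 lay below WT replicate 2. It was 9.12 in run 1 and 38.1 in run 2. The median difference over the 20 regions was -1.15 percentile points, against 0.0761 over all regions. Only 7 of the 20 were ranked above 0 in every list, and several distal ones were near the lower end of the lists. The lowest difference of the 20 was -15.79 (SE 9.92, limma adjusted p = 0.775) at chr13:15715537-15717448, where percentiles were 36.8, 63.2, 46.7 and 44.7 in WT and 12.7, 43.4, 34.99 and 37.1 in mm1179.

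The other regions of the Gli3 window were weaker and overlapped between genotypes or were at 0 in several libraries. At chr13:15564471-15566651, next to the strongest region, the mean percentile was 24.4 ± 17.9 in WT and 11.7 ± 9.91 in mm1179 (SD, n = 4 each). At chr13:15681026-15683453 it was 30.8 ± 9.43 and 28.3 ± 23.5, and at chr13:15745284-15747469 it was 19.98 ± 24.7 and 20.2 ± 19.99, with WT replicates 1 and 2 and mm1179 replicate 1 at 0. At chr13:15753077-15758081 it was 46.9 ± 10.2 and 51.9 ± 13.5, with a difference of -14.61 in run 1 and 24.49 in run 2. At chr13:15712264-15714590, the WT percentiles were 14.4, 40.3, 26.2 and 23.5, while mm1179 had 0, 0, 41.4 and 0. Toward the end of the window, all 4 mm1179 lists were at 0 at chr13:15790143-15791888 and chr13:15798120-15800152, and so were both run 1 WT lists. Run 2 WT percentiles there were 8.57 and 33.3 at the first and 23.3 and 15.2 at the second. At chr13:15647415-15648881 all 8 lists were at 0, since the peaks of the 4 lists that called it ranked too low. At chr13:15512597-15514479, chr13:15582671-15584036, chr13:15693611-15695556, chr13:15795649-15797198 and chr13:15805832-15807313 most libraries were at 0, and the highest percentile was 31.3.

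In the flank before Gli3, the second tested region was chr13:15486069-15488094, between the mm1179 interval and the gene window. Percentiles were 44.2, 51.7, 53.3 and 49.5 in WT and 38.5, 32.5, 43.2 and 58.0 in mm1179, which overlapped (difference -6.61, SE 6.37, limma adjusted p = 0.805). Over the flank of 150 kb, peaks covered 9.37, 10.2, 10.2 and 10.3 kb in WT and 4.13, 1.17, 4.82 and 7.01 kb in mm1179. The exact permutation p within runs was 0.0556, the smallest possible, for this and for the mean percentile of the flank (67.2 ± 2.73 in WT and 29.4 ± 12.7 in mm1179, SD, n = 4 each). All WT values were above all mm1179 values in both measures. The flank held only these 2 tested regions, so its values mostly restate those of the mm1179 interval and are not a separate observation.

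The windows of the Hedgehog targets showed no region with an unadjusted p under 0.05 in either measure (0 of 19), and none whose genotypes did not overlap. Of all regions, 6.57% reached that p by percentile and 3.02% by covered share. Regions without overlap, higher and lower in mm1179, made up 1.2% and 1.07% by percentile and 0.978% and 0.364% by covered share. Counts of 0 in so few regions are near the background. In the window around Ptch1, 12 regions had a mean percentile of 43.3, 41.4, 47.9 and 40.5 in WT and 40.2, 39.6, 45.5 and 50.6 in mm1179. The mm1179 libraries lay on both sides of the WT range, with a difference of 0.708 (exact permutation p = 0.833), -2.46 in run 1 and 3.88 in run 2. It turned negative without WT replicate 4 (-0.224) or mm1179 replicate 4 (-1.50). The strongest Ptch1 region, chr13:63662954-63672418 (9465 bp), was at the ceiling of 3100 in all 8 lists. Peaks covered 84.7%, 88.8%, 89.3% and 92.4% of it in WT and 84.4%, 81.8%, 96.6% and 100% in mm1179, a difference of 1.88 points (SE 4.68, limma adjusted p = 1). The covered length of the Ptch1 window was 37.9 ± 5.53 kb in WT and 37.8 ± 11.9 kb in mm1179 (SD, n = 4 each, exact permutation p = 1).

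In the window around Gli1, which encodes the Hedgehog-induced activator of the Gli family, 4 regions had a mean percentile of 68.5, 76.2, 67.9 and 68.6 in WT and 70.8, 71.9, 69.2 and 63.8 in mm1179. The difference was -1.32 (exact permutation p = 0.556), and WT replicate 2 was the highest of all. Without it the difference was 0.645, and without mm1179 replicate 4 it was 0.399. The strongest Gli1 region, chr10:126723955-126729659, scored 2717 to 3167 in WT and 2151 to 3144 in mm1179. Its covered share was 85.5% ± 6.08 in WT and 93.6% ± 8.24 in mm1179 (SD, n = 4 each), a difference of 8.12 points that did not pass (SE 5.29, limma adjusted p = 1). Hhip, which encodes a membrane protein that binds and holds back Hedgehog ligands, had weak peaks. Its 3 regions had mean percentiles of 9.59, 10.4, 9.73 and 16.1 in WT and 0, 0, 20.6 and 9.04 in mm1179. Both mm1179 libraries at 0 were of run 1, and the exact permutation p was 0.444. The 3 windows can hold peaks of neighbouring genes, and no peak was assigned to a gene.

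The pathway components covered the ligand Shh and its distant limb enhancer ZRS, the coreceptor Gas1, the transducer Smo, the inhibitor Sufu and the effector Gli2. Of their 48 tested regions, 0 were higher and 3 lower in percentile at an unadjusted p under 0.05, beside 3.69% and 2.88% of all regions, with 2 of the 3 in the Gli2 window and 1 in that of Gas1. No peak lay in the Shh window in any of the 8 lists. In the window around ZRS 1 region, chr5:29640240-29643752, had percentiles of 16.4, 32.7, 0 and 25.6 in WT and 31.4, 49.8, 11.6 and 39.7 in mm1179. The genotypes overlapped (difference 14.43, SE 10.6, limma adjusted p = 0.795).

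Sufu, a cytoplasmic inhibitor that holds Gli proteins, had mean percentiles of 55.3, 59.3, 55.2 and 55.1 in WT and 53.4, 48.8, 54.2 and 48.0 in mm1179 over 13 regions. All mm1179 values were below all WT values, with a difference of -5.12 at the smallest exact permutation p of 0.0556. Of the 13 Sufu regions 0 had an unadjusted p under 0.05 in percentile, where 6.57% of all regions did, and the covered length did not separate (exact permutation p = 0.667). Gli2, the main Hedgehog activator of the family, had 48.2, 52.2, 51.6 and 58.5 in WT and 47.2, 45.0, 50.05 and 48.4 in mm1179 over 19 regions. The lowest WT value lay within the mm1179 range, and the exact permutation p of the difference of -4.95 was again 0.0556. Without WT replicate 4 it was -2.98. For Gas1 the difference was 5.57 (exact permutation p = 0.222), or 3.47 without mm1179 replicate 2 and 3.67 without WT replicate 4. For Smo it was -3.00 (exact permutation p = 0.778), or 1.73 without WT replicate 1. These 4 were among 23 windows tested for mean percentile, and none can pass a correction over them.

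Among limb patterning windows, 5 of 33 regions were higher and 0 lower in percentile at an unadjusted p under 0.05, beside 3.69% and 2.88% of all regions, with none past an adjusted p of 0.05. Of the 5, 2 were in the Grem1 window, 2 in that of Alx4 and 1 in the HoxD window. The median difference over the 33 regions was 1.61 percentile points and 10.7 percentage points of covered share, against 0.0761 and 1.87 over all regions. These windows were chosen with earlier results of these data known. The counts and medians are therefore a description and do not show an enrichment. Grem1, which encodes a BMP antagonist that links the posterior signal to the ectodermal ridge, had 3 regions, of which 2 did not overlap between genotypes, both higher in mm1179, beside 1.2% of all regions. The remaining Grem1 region went the other way, with a difference of -10.83 percentile points. The strongest, chr2:113531422-113534841, had percentiles of 35.3, 50.6, 26.97 and 57.2 in WT and 61.5, 68.3, 60.3 and 59.7 in mm1179. Every mm1179 library was above every WT library, by 19.98 on average (SE 7.55, limma adjusted p = 0.753), with 22.0 in run 1 and 17.96 in run 2. Over the whole Grem1 window, mean percentiles were 26.4, 31.6, 19.7 and 23.3 in WT and 53.0, 28.5, 30.2 and 32.0 in mm1179, where replicate 1 stood apart, replicates 2 and 3 lay within the WT range and replicate 4 just above it (exact permutation p = 0.111). The difference of 10.67 was 4.96 without mm1179 replicate 1.

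Alx4, a homeobox gene of the anterior limb bud, had mean percentiles of 36.2, 41.1, 40.6 and 48.5 in WT and 47.4, 42.1, 54.6 and 50.6 in mm1179 over 7 regions. The difference of 7.06 had the smallest exact permutation p within runs, 0.0556, and was 6.06 in run 1 and 8.06 in run 2. At a minimum score of 100 it was 2.37 (exact permutation p = 0.556). The genotypes overlapped across runs but not within a run. At the strongest Alx4 region, chr2:93481166-93488602, peaks covered 91.2%, 71.8%, 78.1% and 85.1% in WT and 97.2%, 91.5%, 98.7% and 93.6% in mm1179. All mm1179 values were above all WT values, by 13.68 points (SE 5.60, limma adjusted p = 1), while the percentile differed by 1.102 (limma adjusted p = 0.802). This was the sole limb patterning region without overlap in covered share, 1 of 33, beside 0.978% of all regions that were higher without overlap.

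Hand2, a posterior transcription factor gene that acts against Gli3, had a strongest region of 40045 bp, chr8:59789536-59829580, with scores of 2929 to 3230. Its covered share was 91.4% ± 5.12 in WT and 90.8% ± 7.99 in mm1179 (SD, n = 4 each), a difference of -0.556 points (SE 4.12, limma adjusted p = 1). The strongest region of the HoxD cluster, chr2:74487049-74540945, was covered by 90.8% ± 4.44 in WT and 90.97% ± 7.43 in mm1179. That of the HoxA cluster, chr6:52165217-52219653, was covered by 99.1% ± 0.461 and 98.7% ± 1.33. The HoxD cluster had a mean percentile of 73.2 ± 3.59 in WT and 74.4 ± 5.61 in mm1179 (exact permutation p = 0.722), the HoxA cluster 41.2 ± 4.86 and 46.5 ± 4.56 (exact permutation p = 0.222). Tbx3 differed by 7.13 (exact permutation p = 0.222), Hand2 by 6.94 (exact permutation p = 0.111) and Sall1 by -3.44 (exact permutation p = 0.5). Without mm1179 replicate 2 the Tbx3 difference was 2.76 and that of Hand2 4.29, and without WT replicate 3 those of Sall1 and HoxA were -1.05 and 3.50. At a minimum score of 100 the Tbx3 and Hand2 differences turned to -0.355 and -1.63. Of the strongest regions of 23 windows, 7 were at or above a score of 3100 in all 8 lists.

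**Figure D4:**
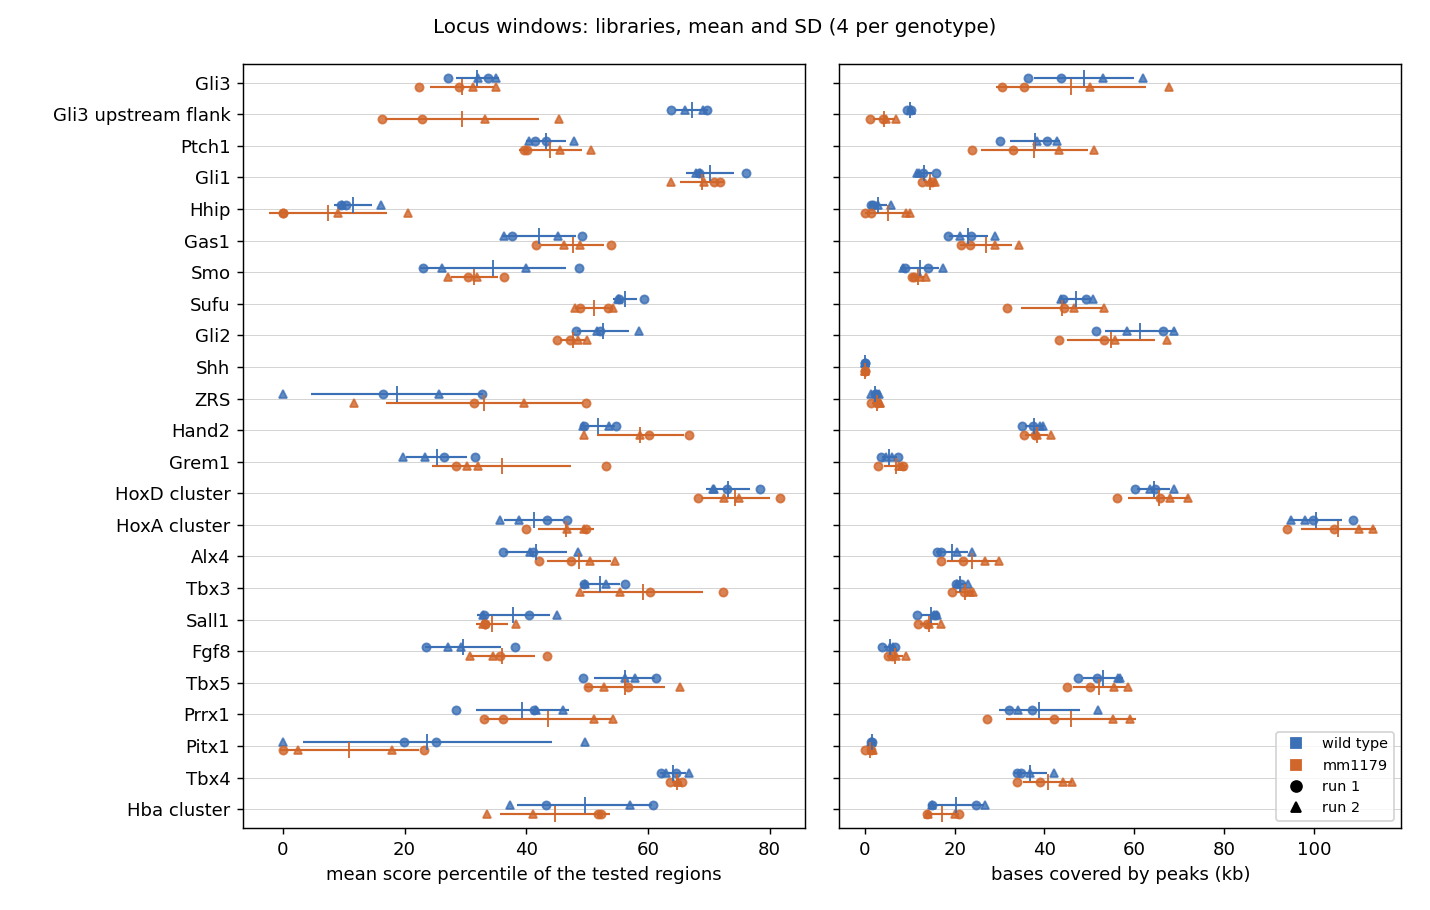
Mean score percentile of the tested regions (left) and bases covered by peaks in kb (right) in each locus window, with 1 point per library (circles for run 1, triangles for run 2) and the mean with its SD for 4 wild-type and 4 mm1179 libraries. The Gli3 upstream flank separates the genotypes in both panels, and Sufu does in the left panel.

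The windows of marker genes were compared as a check of the tissue. In the window around Tbx5, a gene of the forelimb, the mean percentile was 56.2 ± 5.02 in WT and 56.2 ± 6.63 in mm1179 (SD, n = 4 each, exact permutation p = 1), and the strongest region was at the score ceiling in all lists. Prrx1, a gene of limb mesenchyme, also had its strongest region at the ceiling in all lists, with 39.4 ± 7.65 and 43.6 ± 10.6 over its window (exact permutation p = 0.389). Pitx1, a gene of the hindlimb, had 1 weak region with percentiles of 25.2, 19.96, 49.7 and 0 in WT and 23.2, 0, 17.9 and 2.396 in mm1179. The window of Tbx4, the other hindlimb gene, held 11 regions with a mean percentile of 64.1 ± 2.08 and 64.8 ± 0.789, which goes against a weakly marked hindlimb locus. That window can hold peaks of neighbouring genes, and the source of its peaks was not tested.

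Fgf8, a gene of the apical ectodermal ridge, had a strongest region, chr19:45856290-45859415, with percentiles of 94.3, 90.97, 81.3 and 77.5 in WT and 92.7, 94.4, 89.5 and 86.3 in mm1179. The difference of 4.70 (SE 1.94, limma adjusted p = 0.753) was 0.925 in run 1 and 8.47 in run 2, and the genotypes overlapped. The Hba cluster, which encodes erythroid alpha globins, varied widely between libraries, at 60.8, 43.3, 37.3 and 57.0 in WT and 51.9, 52.2, 41.0 and 33.6 in mm1179 (exact permutation p = 0.5). Of the 38 marker regions, 2 were higher and 0 lower in percentile at an unadjusted p under 0.05, beside 3.69% and 2.88% of all regions. The part of erythroid or ridge cells in the differences given above was not tested.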

How the data were processed

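H3K27ac ChIP-seq peak lists of 4 mm1179 and 4 wild-type forelimb libraries were used, with values of the 10 lists of other knockout lines set beside them. The 18 input samples were not analysed here, and no source used here says whether they served as control. Per the submitters' processing notes, the build was mm9 and the tools included MACS 1.4.2, Bowtie 0.12.8, cutadapt 1.1, bcl2fastq 2.17 and CASAVA. The deposited lists have no header and hold, for every peak, its coordinates and the authors' score, which ran from 40 to 3233. The scale of the score is not stated, so it was used only to rank peaks within a list or to filter them. The lists hold no read counts, so the depth is unknown, and a deeper library can yield more and wider peaks. A missing peak shows that no call was made.

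Stretches covered by at least 2 of the 8 lists gave 49115 regions, of which 36309 with a peak in at least 4 lists were tested. Percentile and covered share were fitted with limma 3.58.1 (R 4.3.3), with genotype and run, a trend in the prior variance and Benjamini-Hochberg adjustment over all regions. For locus windows and whole lists, exact permutation tests (two-sided) used the 36 arrangements within runs. The fit was tested on simulated data. Python 3.11.15, numpy 2.4.6, scipy 1.17.1, pandas 2.3.3 and matplotlib 3.10.9 were used. The run tag came from the names of the lists, not from the labels.

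The members and lists were chosen with earlier results of these data known. Windows are approximate mm9 positions of the gene with about 50 kb on each side, from general knowledge except for Gli3. Their order and spacing were checked on a GRCm38 gene table where a chromosome held several, which left the Gli1 window unchecked. Named were all tested regions of both Gli3 windows, the strongest region of each other window and, with none past the threshold, the 5 largest differences in each direction and measure among regions without overlap. Replicate numbers are shared by the genotypes. Deviations of same-numbered libraries correlated at 0.0919 to 0.289, and not every pair exceeded 0.1, so the numbers were not taken to pair them. Alternatives were other ranks, score minima, region rules, blocks, overlap rules, a fit without the trend and leaving out each library.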

Additional observations from a re-analysis of the deposited data

Results flagged for a closer look

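Within a genotype, the highest or lowest of 4 libraries stood far from the other 3 in 15 of the 136 groups of 4 compared. For normal values without a floor, chance alone sets apart about 1 in 20 groups, or 6.8 here. Percentiles have a floor at 0, so 15 and 6.8 are not like for like. In window values, WT replicate 1 was low in the covered length of the Gli3 upstream flank (9.37 kb, the others 10.2 to 10.3 kb) and of the Sall1 window (11.6 kb, the others 15.3 to 16.03 kb). In mean percentile, WT replicate 2 was high in the Gli1 window (76.2) and in the Sufu window (59.3), WT replicate 4 in the Hhip window (16.1), mm1179 replicate 1 in the Grem1 window (53.0) and mm1179 replicate 4 in the Sall1 window (38.3).

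In the Gli3 window, the percentile of the strongest region was 99.93 in WT replicate 3, the sole list with a score above 3100 there. The floor set the group apart by construction in 7 weak regions, where 1 library had a value and the other 3 were at 0. These were chr13:15512597-15514479 (12.2 in mm1179 replicate 3), chr13:15582671-15584036 (23.5 in WT replicate 1), chr13:15671808-15674015 (12.6 in WT replicate 2), chr13:15693611-15695556 (25.8 in mm1179 replicate 4), chr13:15712264-15714590 (41.4 in mm1179 replicate 3), chr13:15795649-15797198 (3.46 in WT replicate 3) and chr13:15805832-15807313 (16.9 in WT replicate 3).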

How the results depend on the processing

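The mm1179 interval was lower in mm1179 under all 16 alternatives, by percentile differences of -79.8 to -59.3, with limma adjusted p of 0.0633 to 0.855. It ranked first by p in 10 of them, with rank 6 at worst. The interval was picked by its p in the main fit of the same lists, so these ranks are not separate support. In covered share its rank by p was 31 to 629 under the 16 alternatives of that measure, and never first. No alternative called a region by percentile. By covered share, 20 regions higher and 40 lower were called without the trend, and 46 and 62 with regions covered by at least 4 lists. The SE of the interval was 10.2 and 10.7 under these settings, against 21.5 in the main fit. The count of 0 by covered share thus depended on such settings, and the cause was not tested. The flank and Sufu differences in percentile (-37.76, -5.12) and the flank's covered length (-5.72 kb) reached an exact permutation p of 0.0286 without the run block. With the replicate number as a block, limma called 0 regions in either measure and direction, the interval had an adjusted p of 0.791, and no call changed; 1 of 4 WT libraries correlated best with its own number.

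Several differences turned sign, and the cause was not tested. They included Hand2 (6.94), Tbx3 (7.13) and Hba (-4.93), which were not near 0. At a minimum score of 100, the percentile differences were 0.152 for Gli3, -1.63 for Hand2, -0.558 for HoxD, -0.355 for Tbx3, 0.173 for Sall1, -0.738 for Tbx4 and 0.309 for Hba, and covered lengths differed by 3.57 kb (Ptch1), 0.629 kb (Smo) and 0.717 kb (Sall1). With each list's own length, percentiles differed by -3.12 (Ptch1), 1.06 (Gli1) and -0.0615 (Tbx5). With at least 50% of a region covered, they differed by -0.0761 (Ptch1), -5.01 (HoxD) and -1.64 (Tbx5). With equal peak numbers, covered lengths differed by 0.620 kb (Ptch1), -0.531 kb (Hhip) and 0.0975 kb (Pitx1), and with equal covered bases by 1.63 kb (Ptch1) and -1.19 kb (Hhip).

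Leaving out 1 library gave percentile differences of -1.50 to 2.24 for Ptch1, -2.31 to 0.645 for Gli1, -6.81 to 1.73 for Smo, -1.25 to 3.22 for HoxD, -2.99 to 2.08 for Tbx5 and -0.0467 to 1.53 for Tbx4. Covered lengths then differed by -10.1 to 2.30 kb for Gli3, -4.58 to 4.48 kb for Ptch1, -1.57 to 1.42 kb for Smo, -6.21 to 0.987 kb for Sufu, -0.642 to 1.41 kb for Hand2, -1.06 to 4.24 kb for HoxD, -1.43 to 0.392 kb for Sall1, -2.91 to 1.62 kb for Tbx5 and -0.481 to 0.109 kb for Pitx1, and by -6.05 to 11.5 Mb for whole lists. Of 726 values under alternatives, 665 kept their direction and their side of the threshold. Window tests within runs or with the replicate number as a block cannot reach 0.05, so their side was fixed in advance. The Hhip difference in percentile, 0 at a minimum score of 100, was counted as kept. Unknown depth and the score ceiling limit what the strongest regions can show.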

Other observations

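Some regions outside the windows had small but even differences in percentile. They were chosen after their values were seen, by the smallest limma p. At chr14:64477866-64480661 percentiles were 84.0, 85.3, 89.0 and 88.0 in WT and 77.5, 74.9, 78.4 and 77.8 in mm1179, a difference of -9.45 (limma adjusted p = 0.753). At chr14:12514131-12517826 they were 79.3, 80.5, 82.9 and 78.2 in WT and 66.6, 68.6, 61.9 and 62.6 in mm1179, a difference of -15.32. At chr1:137624791-137631599 they were higher in mm1179, at 89.9, 90.4, 93.4 and 94.4, than in WT, at 79.8, 77.4, 87.9 and 87.2. So were those at chr18:34783063-34785986, at 87.6, 88.2, 91.03 and 92.2 against 81.6, 79.5, 81.6 and 84.0 in WT, a difference of 8.07. The genotypes did not overlap in these 4 regions, which follow the mm1179 interval by p, and none passed the adjusted threshold.

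Libraries resembled each other by run more than by genotype. Over all tested regions, the mean Spearman correlation of percentiles between 2 libraries of the same run was 0.859 for the same genotype and 0.853 for different genotypes, and between runs it was 0.813 and 0.807. The correlations are across regions, which are not independent, and are given as a description.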
